A study of Mus musculus with 17 samples.

Results

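The amino acid transporter genes of the mouse diaphragm, taken as all gene symbols of the solute carrier families Slc1, Slc3, Slc7, Slc36, Slc38 and Slc43, numbered 42 of the 47643 symbols in the table. They were followed in 4-month-old male mice of the C57BL/6J strain, 17 in number, of which 5 were Control, 5 Control_rFibcd1, 3 LLC and 4 LLC_rFibcd1. Mice of both LLC groups carried subcutaneous tumors of Lewis lung carcinoma cells, a mouse cell line, so the comparison rests on 1 tumor model. rFibcd1 is a recombinant piece of the secreted protein Fibcd1 that was injected into the peritoneal cavity, and mice without it received mock injections. RNA came from part of the diaphragm, dissected free of tendon, and all its cell types were sequenced together, so that a change in the share of a cell type and a change in RNA per cell cannot be told apart. The labels do not say whether mice shared a cage or were processed together. In all, 26 of the 42 transporter genes reached at least 1 TPM (transcripts per 1000000) in at least 3 mice and were tested, and 16 did not.

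Amino acid transporters bring the building blocks of protein into the cell, exchange 1 amino acid for another across the plasma membrane, or release amino acids from the lysosome. Several are obligate pairs: the glycoprotein Slc3a2 (4F2hc, CD98) takes light chains of the Slc7 family to the cell surface. In skeletal muscle, glutamine, branched-chain amino acids and arginine are carried by members of the Slc38, Slc7 and Slc43 families, and the amino acids that enter are sensed by the kinase complex mTORC1 at the lysosome. When amino acids run short, the transcription factor ATF4 raises several of these carriers together with enzymes of amino acid synthesis.

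Promoters are shown for 3 genes called below: Slc3a2, the heavy chain, Slc7a7, one of its light chains, and Slc38a7. The level of Slc38a7 was higher in every mouse with a tumor than in any without, but its call depended on the scaling. Each promoter is the run of 250 bases before a RefSeq gene start in build GRCm38.p6, written 5′ to 3′ on the gene's strand, which is the minus strand in each case. The windows are chr19:8713898-8714147 for Slc3a2, chr14:54417945-54418194 for Slc7a7 (the outermost of 5 starts) and chr8:95853492-95853741 for Slc38a7. The Slc3a2 window lies inside the gene as GENCODE places it (chr19:8706882-8723369), so the bases before its outermost GENCODE start were not searched. Capitals mark a match to TGATGNAA, the core of the sites that ATF4 binds, or to CACGTG, the E-box bound by TFEB and related factors.
Slc3a2: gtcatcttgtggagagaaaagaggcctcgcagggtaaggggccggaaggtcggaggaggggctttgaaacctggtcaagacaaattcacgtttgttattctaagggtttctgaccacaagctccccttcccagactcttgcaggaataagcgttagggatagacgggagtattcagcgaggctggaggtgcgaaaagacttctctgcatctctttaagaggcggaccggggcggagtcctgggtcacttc
Slc7a7: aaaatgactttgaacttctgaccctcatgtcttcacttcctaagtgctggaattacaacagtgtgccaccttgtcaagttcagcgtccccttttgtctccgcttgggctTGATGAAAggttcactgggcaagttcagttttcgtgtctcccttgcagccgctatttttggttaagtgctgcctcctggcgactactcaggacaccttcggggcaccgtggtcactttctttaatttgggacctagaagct
Slc38a7: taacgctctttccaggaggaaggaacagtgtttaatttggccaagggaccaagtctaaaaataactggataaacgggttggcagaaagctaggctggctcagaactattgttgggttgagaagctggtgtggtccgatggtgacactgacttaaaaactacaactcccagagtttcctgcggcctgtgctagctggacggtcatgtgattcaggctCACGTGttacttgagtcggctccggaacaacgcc

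The promoter table had an entry for 31 of the 42 transporter genes, with 42 starts in all. Slc7a5, Slc7a2, Slc38a1 and Slc38a3, all called below, had none, and Slc43a2 had entries without a match to either sequence. TGATGNAA, searched on both strands, was found in 3 of these 42 windows, against 3.45% of all 32851 promoter windows of that length. The 3 belonged to 2 genes, Slc7a7 (141 bases before the start shown) and Slc7a11, and other starts of Slc7a7 had windows without a match. CACGTG was found in 7 of the 42 windows, against 6.02% of all windows. These belonged to 7 genes, Slc38a7 (34 bases before the start), Slc36a1, Slc43a1, Slc1a6, Slc1a7, Slc38a5 and Slc7a14. Neither letter sequence overlaps the other, and no match in a window says only that the letters are not there.

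By GENCODE in GRCm38, 4 genes whose levels are given below mouse by mouse lie at chr19:8706882-8723369 (Slc3a2, minus strand), chr8:40862396-40922308 (Slc7a2, plus), chr11:75531694-75577575 (Slc43a2, plus) and chr9:107650634-107669530 (Slc38a3, minus). Levels are given over the whole gene, all exons together. In all, 6 transporter genes exceeded a mean of 20 TPM over the 17 mice. Slc1a5, an exchanger of neutral amino acids including glutamine, had the highest mean at 60.7 TPM and also a wide spread, from 22.9 to 189 TPM. Slc38a3 and Slc38a2, both sodium-coupled carriers of glutamine and other neutral amino acids, followed at 53.8 TPM (37.8 to 70.1) and 46.6 TPM (26.2 to 57.8). The ranges of these 3 genes overlap, so their order differs between mice. In Control and Control_rFibcd1 the mean of Slc38a3 (59.6 and 59.8 TPM) was above that of Slc1a5 (49.3 and 41.5 TPM). The median over all mice was 54.4 TPM for Slc38a3, 47.8 TPM for Slc38a2 and 42.3 TPM for Slc1a5. Slc43a3, a relative of the Slc43 amino acid carriers that transports purine nucleobases, had a mean of 32.4 TPM, Slc38a10 one of 25.7 TPM and Slc3a2 one of 22.2 TPM. The Slc38 family had the largest summed level by group mean, 149 ± 10.9 TPM in Control (SD, n = 5) and 137 ± 13.6 TPM in LLC (SD, n = 3), although in LLC replicate 1 Slc1a4 and Slc1a5 together reached 191 TPM against 127 TPM for Slc38. The plot of levels by mouse shows the 26 tested genes in order of their mean.

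**Figure D1:**
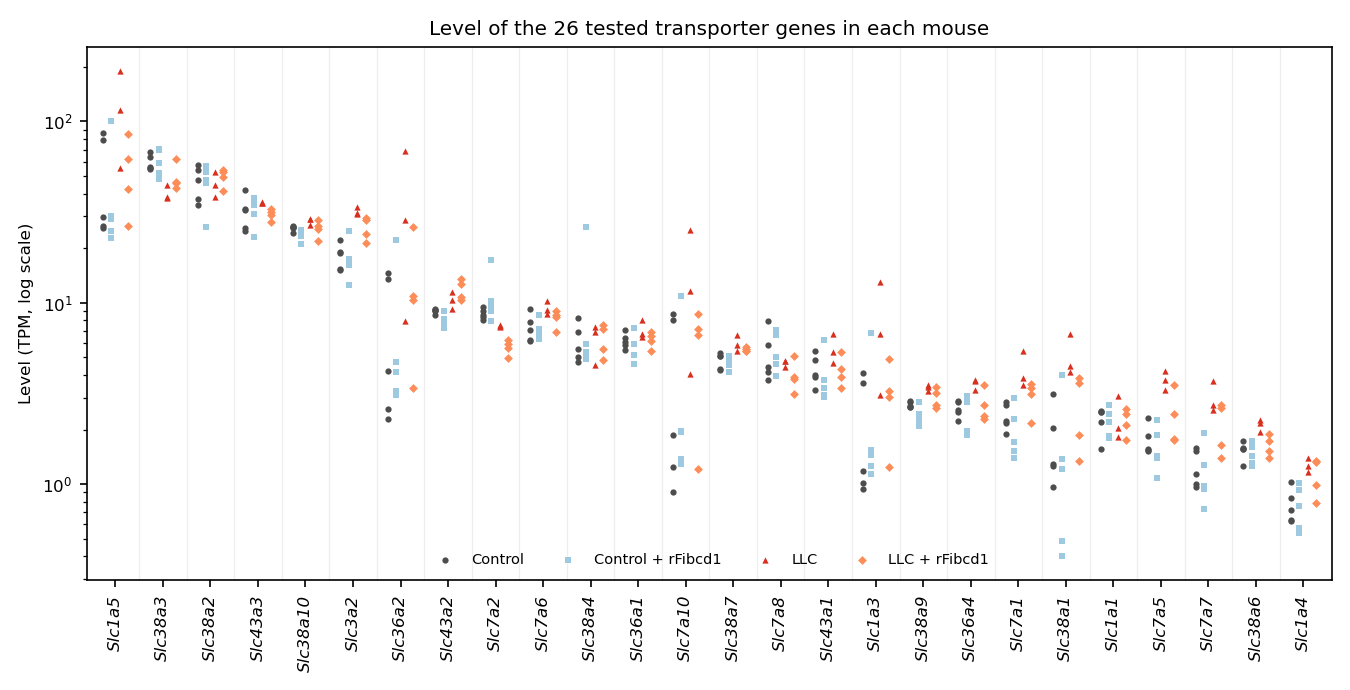
Level in TPM (log scale) of the 26 tested transporter genes, 1 point per mouse, in order of mean level; colors and symbols give the 4 groups. Slc1a5, Slc36a2, Slc7a10 and Slc1a3 spread widely within groups, with the highest mouse of each in LLC (189, 69, 25.2 and 13.1 TPM).

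The 16 genes below the filter stayed at or under 2.31 TPM in every mouse, and Slc7a12 was listed at 0 in all 17. Slc7a4 came nearest to the filter, with 0.35 to 1.89 TPM. Slc7a11, the cystine and glutamate exchanger xCT, was read at 0.00337 to 0.46 TPM, where the highest value came from LLC replicate 3 and corresponded to an estimated 155 reads. Slc3a1, the heavy chain of kidney and gut, and Slc1a2, a glutamate carrier of astrocytes and liver, were highest in Control_rFibcd1 replicate 2 at 2.31 and 0.96 TPM. The Alb transcript of liver was at 1934 TPM in that mouse and at 0.22 to 171 TPM in the others.

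The first question was which transporters differ between diaphragms of mice with and without a tumor, 7 against 10 mice with the injection ignored. Of the 26 tested genes, 11 were higher and 2 were lower in tumor-bearing mice at an adjusted p under 0.05, against 44.8% of all 13305 genes tested. Over all genes, 38.8% passed upwards and 5.98% downwards, so the share of transporters that passed, 50%, lay close to the background. The median change of all genes was 0.13 on the log2 scale, a shift that single genes have to be set against. The mitochondrially encoded share of the TPM sum was 41.3% to 46.5% in tumor-bearing mice and 45.4% to 50.4% in tumor-free mice. Rescaled without those transcripts, the median change of all genes was 0.069. All adjusted p-values are from limma with Benjamini-Hochberg adjustment over all genes tested, and changes are differences of log2(TPM + 1), which understate those of low genes.

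The heavy chain Slc3a2 rose with tumor. Its levels were 18.8, 22.3, 15.3, 15.1 and 18.9 TPM in Control and 24.8, 16.1, 17.4, 12.6 and 16.5 TPM in Control_rFibcd1. In LLC they were 33.8, 31.1 and 30.9 TPM, and in LLC_rFibcd1 24.0, 29.4, 28.7 and 21.4 TPM. All LLC mice lay above all Control mice, while LLC_rFibcd1 overlapped Control_rFibcd1 through replicate 1 of the latter. The pooled difference was 0.66 ± 0.11 (SE, adjusted p = 0.00138), and it passed whichever of the 17 mice was dropped.

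Of the 10 listed light chains, 5 were tested, and 3 of these rose, where 38.8% of all genes did. Slc7a5 (LAT1), which with Slc3a2 exchanges leucine and other large neutral amino acids for glutamine, was low in absolute terms. It lay at 1.53 to 2.32 TPM in Control, 1.08 to 2.25 TPM in Control_rFibcd1, 1.74 to 3.51 TPM in LLC_rFibcd1 and 3.30, 4.18 and 3.73 TPM in LLC. The highest levels were thus in LLC without overlap with Control, and LLC_rFibcd1 spread over both ranges. The change with tumor was 0.53 ± 0.11 (adjusted p = 0.0036).

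Slc7a7 (y+LAT1), which exchanges cationic for neutral amino acids and is known from macrophages and epithelia, showed the same arrangement. Its levels were 0.97 to 1.59 TPM in Control, 0.73 to 1.92 TPM in Control_rFibcd1, 1.39 to 2.75 TPM in LLC_rFibcd1 and 2.56, 2.71 and 3.70 TPM in LLC. The change was 0.64 ± 0.12 (adjusted p = 0.00241). An exon of Slc7a7 overlaps Oxa1l on the other strand, and whether the counting used strand is not settled by the sources. Slc7a6 (y+LAT2), its close relative, rose by 0.24 ± 0.08 on the log2 scale (adjusted p = 0.0238), a call that was lost without LLC replicate 1 (0.21, adjusted p = 0.0706) or LLC replicate 3 (0.23, adjusted p = 0.0548). It was also lost with median-ratio scaling (0.096, adjusted p = 0.294), quantile normalization (0.049, adjusted p = 0.605), rescaling without mitochondrially encoded genes (0.18, adjusted p = 0.0911) and the white adipocyte score in the model (0.092, adjusted p = 0.187). Slc7a8 (LAT2) had a difference of -0.24 ± 0.14 (adjusted p = 0.15) and Slc7a10 one of 1.09 ± 0.49 (adjusted p = 0.0795), and neither passed.

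The cationic carriers Slc7a1 and Slc7a2, which both bring arginine and lysine into the cell, moved in opposite directions. Slc7a1 (CAT1) was at 1.90 to 2.82 TPM in Control, 1.39 to 2.98 TPM in Control_rFibcd1, 2.16 to 3.56 TPM in LLC_rFibcd1 and 3.52, 3.83 and 5.39 TPM in LLC, a rise of 0.52 ± 0.12 (adjusted p = 0.00443). Slc7a2 (CAT2) was the more abundant of the pair. Its levels were 8.32, 8.04, 8.99, 8.55 and 9.47 TPM in Control and 9.74, 17.2, 7.98, 10.2 and 9.01 TPM in Control_rFibcd1. In LLC they were 7.34, 7.42 and 7.58 TPM, and in LLC_rFibcd1 5.93, 4.95, 5.61 and 6.21 TPM. Every tumor-bearing mouse lay below every tumor-free mouse, which held for 0.526% of all genes, and Slc7a2 fell by 0.51 ± 0.11 on the log2 scale (adjusted p = 0.00336). The single high value belonged to Control_rFibcd1 replicate 2, the mouse with the liver transcripts. Without that mouse the difference was -0.43 ± 0.054 (adjusted p = 0.000617).

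Among the Slc38 carriers, 4 rose and 1 fell out of 8 tested, not far from the 38.8% and 5.98% of all genes. Slc38a3 (SNAT3), a glutamine carrier and the most abundant of the family by mean, was at 55.5, 54.4, 64.0, 55.8 and 68.2 TPM in Control and 52.0, 69.8, 70.1, 48.3 and 58.8 TPM in Control_rFibcd1. In LLC it was at 38.4, 37.8 and 44.5 TPM, and in LLC_rFibcd1 at 46.6, 42.8, 45.5 and 62.1 TPM. All tumor-bearing mice but LLC_rFibcd1 replicate 4 lay below all tumor-free mice, and the difference was -0.39 ± 0.09 (adjusted p = 0.00524). Slc38a1 (SNAT1), a carrier of glutamine in lymphocytes, neurons and other cells, rose by 0.87 ± 0.25 on the log2 scale (adjusted p = 0.0138), from a range of 0.40 to 4.00 TPM in tumor-free mice to one of 1.34 to 6.69 TPM in tumor-bearing mice. Without LLC replicate 3 the adjusted p of Slc38a1 was 0.0509 (0.73), and with the white adipocyte score in the model the difference was 0.48 (adjusted p = 0.129). Slc38a2, the carrier that cells raise when amino acids are withdrawn, had a difference of 0.07 ± 0.15 (adjusted p = 0.701).

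The remaining rises in the family were small. Slc38a7, which exports glutamine from lysosomes, was at 4.17 to 5.26 TPM in the 10 tumor-free mice and at 5.40 to 6.61 TPM in the 7 tumor-bearing mice, without overlap, as were 1.74% of all genes in that direction. Its difference was 0.22 ± 0.05 (adjusted p = 0.00497). Slc38a9, which reports lysosomal arginine to mTORC1, rose by 0.23 ± 0.05 on the log2 scale (adjusted p = 0.00508), and Slc38a6 by 0.18 ± 0.06 (adjusted p = 0.0248), but without LLC replicate 1 or 3 Slc38a6 had an adjusted p of 0.0904 or 0.0837. Slc38a6 was also lost with the white adipocyte score in the model (0.11, adjusted p = 0.193) and when rescaled without mitochondrially encoded genes (0.15, adjusted p = 0.088). These 3 differences exceeded the median shift of all genes by less than 0.1, Slc38a7 and Slc38a6 did not pass with median-ratio scaling (0.084, adjusted p = 0.252, and 0.073, adjusted p = 0.245), and all 3 turned negative after quantile normalization (Slc38a7 -0.00236, Slc38a9 -0.00852 and Slc38a6 -0.0594).

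Slc43a2 (LAT4), which lets branched-chain amino acids, phenylalanine and methionine pass down their gradient, had the smallest p of all transporters. Its levels were 9.12, 8.98, 9.24, 8.54 and 9.13 TPM in Control and 8.95, 7.27, 8.13, 7.72 and 7.91 TPM in Control_rFibcd1. In LLC they were 9.22, 11.5 and 10.4 TPM, and in LLC_rFibcd1 13.5, 10.4, 12.6 and 10.8 TPM. The tumor-bearing mice lay above the tumor-free mice except for LLC replicate 1, which fell just below the highest Control mouse. The difference was 0.36 ± 0.056 (adjusted p = 0.000888) and passed without any 1 of the 17 mice, but after quantile normalization it was 0.16 ± 0.077 (adjusted p = 0.104). Slc1a4 (ASCT1), an exchanger of serine, alanine and cysteine, was low at 0.53 to 1.39 TPM and rose by 0.30 ± 0.08 on the log2 scale (adjusted p = 0.00886). The call of Slc1a4 was lost after quantile normalization (0.071, adjusted p = 0.469) and with the white adipocyte score in the model (0.27, adjusted p = 0.0607). Slc43a1, Slc43a3, Slc36a1, Slc36a4, Slc38a4, Slc38a10 and Slc1a1 did not pass, with differences from -0.10 to 0.20. Of the abundant ones, Slc43a3 had a difference of 0.05 ± 0.11 (adjusted p = 0.70) and Slc38a10 one of 0.10 ± 0.05 (adjusted p = 0.0992).

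**Figure D2:**
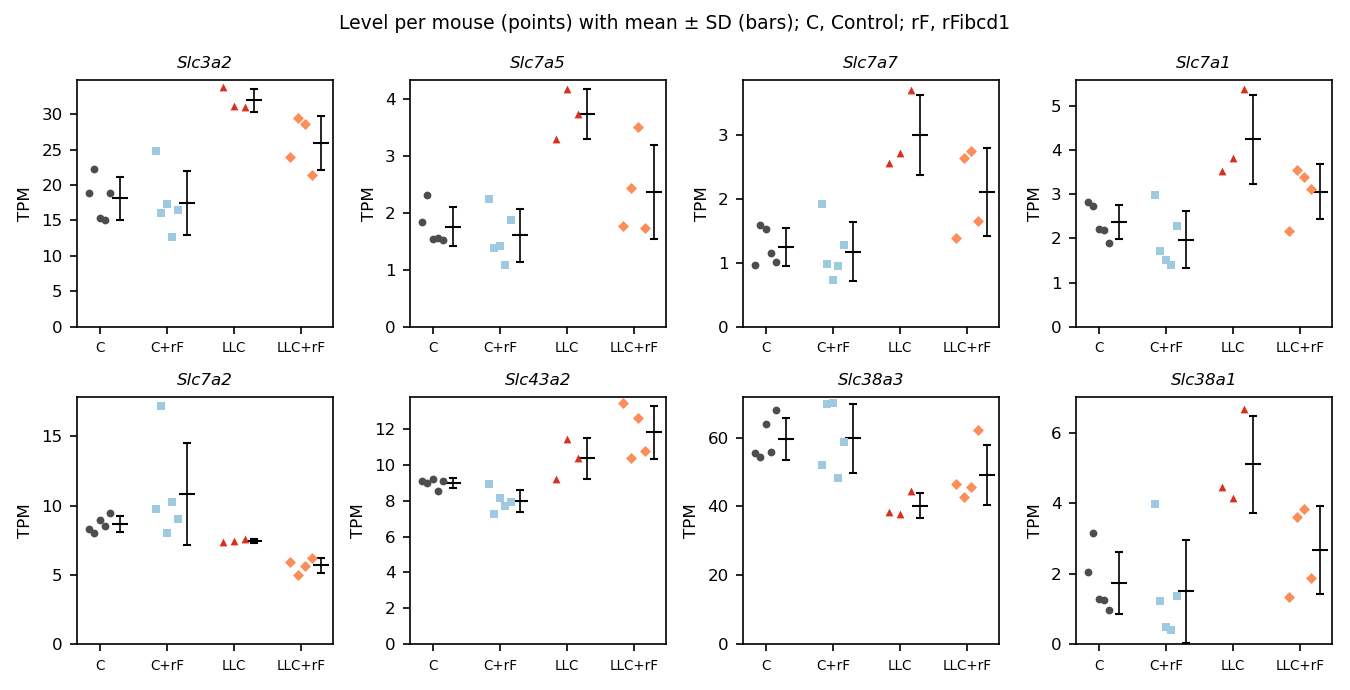
Level in TPM of 8 transporter genes, 1 point per mouse in each group, with the mean and SD beside the points; C is Control and rF is rFibcd1. Slc3a2, Slc7a5, Slc7a7, Slc7a1 and Slc38a1 are highest in LLC, Slc43a2 is highest in LLC_rFibcd1, Slc7a2 is lowest in LLC_rFibcd1 and Slc38a3 is lowest in LLC.

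The tumor effect was then taken apart by injection. Between LLC and Control, 12 of the 26 genes were higher and 1 was lower, while 35.8% of all genes passed, 29.7% upwards and 6.02% downwards, and 13 did not overlap between the groups, against 40.2% of all genes. The largest changes among those called were 1.40 ± 0.50 for Slc1a3 (adjusted p = 0.0405), 1.19 ± 0.37 for Slc38a1 (adjusted p = 0.0257), 0.83 ± 0.18 for Slc7a7 (adjusted p = 0.0111), 0.80 ± 0.17 for Slc3a2 (adjusted p = 0.0102) and 0.78 ± 0.17 for Slc7a5 (adjusted p = 0.0103). Slc38a3 was the 1 gene that fell, by 0.55 ± 0.14 on the log2 scale (adjusted p = 0.0128). The Slc1a3 call was lost without the filter on low values (adjusted p = 0.0614), with median-ratio scaling (1.23, adjusted p = 0.0563), with quantile normalization (1.10, adjusted p = 0.0648), when rescaled without mitochondrially encoded genes (adjusted p = 0.0556) and in 5 of the 17 fits without 1 mouse. Slc7a1 rose by 0.63 ± 0.17 (adjusted p = 0.0162). Smaller changes passed for Slc1a4 (0.37 ± 0.12, adjusted p = 0.0291), Slc36a4 (0.35 ± 0.13, adjusted p = 0.046), Slc7a6 (0.33 ± 0.12, adjusted p = 0.0411), Slc38a6 (0.30 ± 0.09, adjusted p = 0.0199), Slc38a7 (0.26 ± 0.08, adjusted p = 0.0199) and Slc38a9 (0.24 ± 0.08, adjusted p = 0.0303). None of these 6 passed with median-ratio scaling (adjusted p = 0.0781 to 0.454) or quantile normalization (adjusted p = 0.24 to 0.879), and Slc36a4 also failed with a pseudocount of 0.1 (adjusted p = 0.0545), without the filter (adjusted p = 0.0716) and in 8 of the 17 fits without 1 mouse. This count rests on single mice: it was 0 without LLC replicate 3, 6 without LLC replicate 1, and 8, 8 and 7 without Control replicates 3, 4 and 5. The calls over all genes fell with it, from 35.8% to 0.182% without LLC replicate 3, 17% without LLC replicate 1 and 26.5%, 26.6% and 24.6% without those Control mice. The size of the Slc3a2 change without LLC replicate 3 was 0.82 ± 0.20 (adjusted p = 0.0683) and that of Slc7a5 0.78 ± 0.20 (adjusted p = 0.0694).

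Between LLC_rFibcd1 and Control_rFibcd1, 3 genes passed, 2 upwards and 1 downwards, against 8.06% of all genes (7.02% and 1.04%). Slc43a2 rose by 0.51 ± 0.077 on the log2 scale (adjusted p = 0.00239) and Slc7a2 fell by 0.78 ± 0.15 (adjusted p = 0.0066), both without overlap between the groups, as was Slc38a7, which did not pass (0.20 ± 0.07, adjusted p = 0.0858); 8.91% of all genes did not overlap. Slc3a2 rose by 0.56 ± 0.16 (adjusted p = 0.0389), with overlap, and failed in 7 of the 17 fits without 1 mouse and with each of the 3 other scalings (adjusted p = 0.0553 to 0.0651) or only the compared mice (adjusted p = 0.122), and without the filter on low values (adjusted p = 0.0647). After quantile normalization Slc43a2 had a difference of 0.36 here (adjusted p = 0.0722), and in a fit of only the compared mice Slc7a2 had an adjusted p of 0.0671. The count was 8 without Control_rFibcd1 replicate 1, the tumor-free mouse with the highest Slc3a2 (21.8% of all genes), and 6 without LLC_rFibcd1 replicate 1 (8.44% of all genes). No mouse is shared between this comparison and the one before it.

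**Figure D3:**
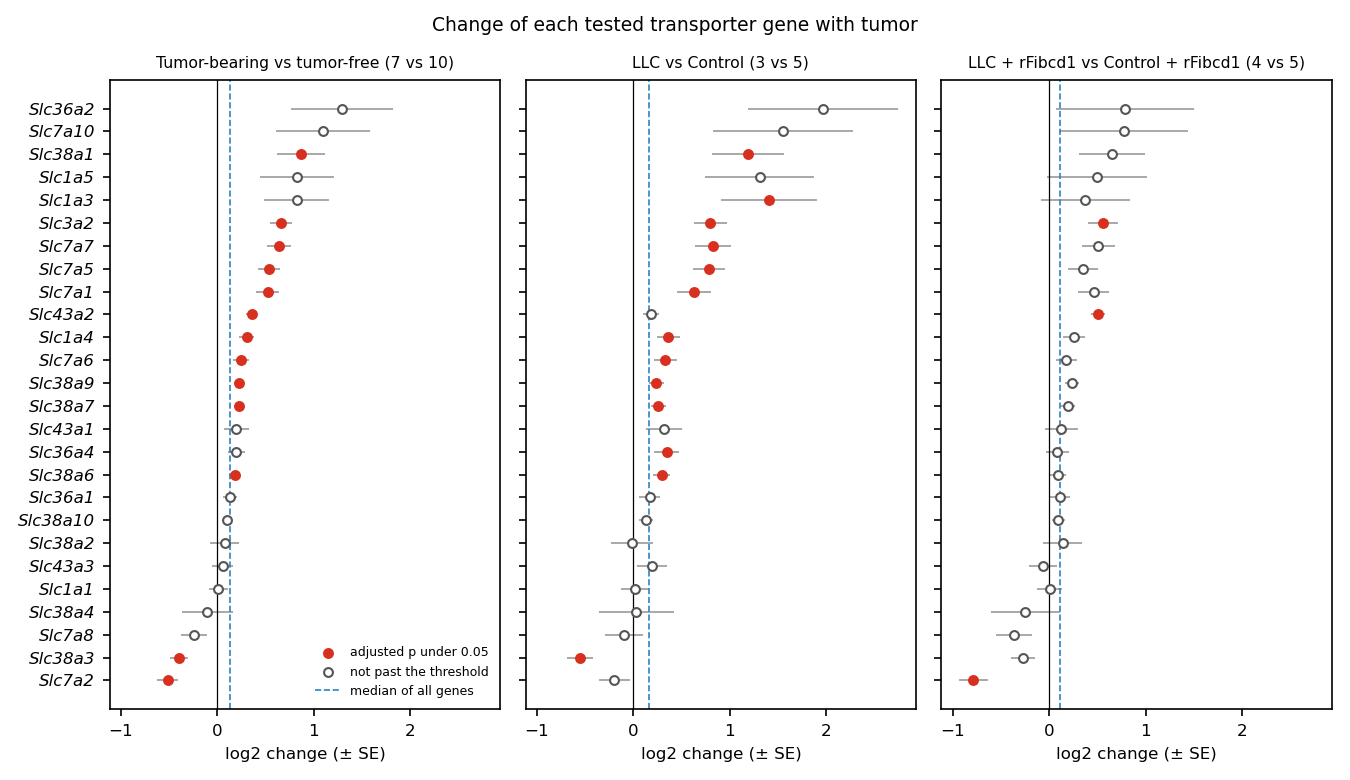
Difference in log2(TPM + 1) with its SE for the 26 tested transporter genes in 3 comparisons, ordered by the pooled tumor comparison; filled points have an adjusted p under 0.05 and the dashed line is the median of all genes (0.13, 0.16 and 0.11). Slc3a2 is called in all 3, Slc43a2 and Slc7a2 in the pooled and the rFibcd1 comparison, and Slc38a3 in the pooled and the LLC comparison.

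Whether the tumor effect itself differed by injection was tested as the interaction, in which no transporter passed by limma (0% of all genes). At an unadjusted p under 0.05 there were 2, against 8.58% of all genes. They were Slc43a2, with a difference between the tumor effects of 0.33 ± 0.11 (adjusted p = 0.335), and Slc7a2, with one of -0.59 ± 0.22 (adjusted p = 0.39). The calls of Slc43a2 and Slc7a2 in the rFibcd1-injected mice alone are therefore not shown to be particular to them.

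Injection of rFibcd1 was compared within tumor-bearing and within tumor-free mice. Between LLC_rFibcd1 and LLC no transporter passed by limma, against 0.113% of all genes, and 3 of 26 had an unadjusted p under 0.05 (22.7% of all genes). Slc7a5 had the smallest p, with a difference of -0.52 ± 0.18 (adjusted p = 0.184; 0.0666 to 0.546 without 1 mouse). The LLC_rFibcd1 mice lay below all LLC mice in 5 genes, namely Slc38a1, Slc38a6, Slc3a2, Slc43a3 and Slc7a2, where 9.3% of all genes did. For Slc3a2 this difference was -0.30 ± 0.18 (adjusted p = 0.28) and for Slc7a2 -0.34 ± 0.17 (adjusted p = 0.228). Between Control_rFibcd1 and Control no transporter passed by limma (0% of all genes) and 2 had an unadjusted p under 0.05 (4.39% of all genes). The smallest p there belonged to Slc38a9, at -0.15 ± 0.067 (adjusted p = 0.927), and the Slc3a2 difference was -0.07 ± 0.15. With groups of 3 to 5 mice these intervals are wide, and a p above the threshold does not show that levels were alike.

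Several transporters varied widely between mice of the same group, Slc38a1 among them (0.40 to 4.00 TPM in Control_rFibcd1). A set of 4 was singled out because they follow a white adipocyte score. They were Slc1a5, Slc36a2 (PAT2, a proton-coupled carrier of glycine, alanine and proline found on adipocytes), Slc7a10 (Asc-1, an exchanger of small neutral amino acids that marks white adipocytes) and Slc1a3 (GLAST, a glutamate carrier). The same 9 mice held the highest values of all 4 genes: Control replicates 1 and 2, Control_rFibcd1 replicate 1, the 3 LLC mice and LLC_rFibcd1 replicates 1, 2 and 3. In these 9 mice Slc36a2 was at 7.93 to 69 TPM and in the other 8 mice at 2.29 to 4.70 TPM. Slc7a10 was at 4.02 to 25.2 TPM against 0.91 to 1.95 TPM. Slc1a3 ranged from 3.01 to 13.1 TPM against 0.94 to 1.54 TPM, and Slc1a5 from 42.3 to 189 TPM against 22.9 to 30 TPM. None of the 4 ranges overlapped. The mice were, however, divided at a gap in the white adipocyte score, after their values had been seen, so agreement with the score was built in.

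The 9 mice were thus those with the highest white adipocyte score. This score is the mean log2(TPM + 1) of the 7 markers Adipoq, Lep, Plin1, Cidec, Retn, Cfd and Fabp4. The score was 6.16 to 8.25 in the 9 mice and 4.75 to 5.44 in the other 8, and no marker was at 0 in any mouse. The summed level of the 7 markers was 846 to 3119 TPM in Control, 957 to 3885 TPM in Control_rFibcd1, 1936 to 8094 TPM in LLC and 1076 to 4192 TPM in LLC_rFibcd1, and 1 of the 7 passed upwards in the pooled tumor comparison. The pooled tumor differences of the 4 transporters were 0.83 ± 0.38 for Slc1a5 (adjusted p = 0.0889), 1.29 for Slc36a2 (adjusted p = 0.057), 1.09 for Slc7a10 (adjusted p = 0.0795) and 0.82 for Slc1a3 (adjusted p = 0.0591). With the white adipocyte score as a covariate they were 0.00081, 0.15, 0.037 and 0.093. For Slc1a5, the transporter with the highest mean over all mice though not the highest median, the SE of the difference beside the score was 0.0982 (adjusted p = 0.996). Slc1a3, called between LLC and Control, had a difference there of 0.37 beside the score (adjusted p = 0.102), 0.39 beside the B cell score (adjusted p = 0.754) and 0.61 beside the macrophage score (adjusted p = 0.513). An exon of Slc7a10 overlaps Lrp3 on the other strand.

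**Figure D4:**
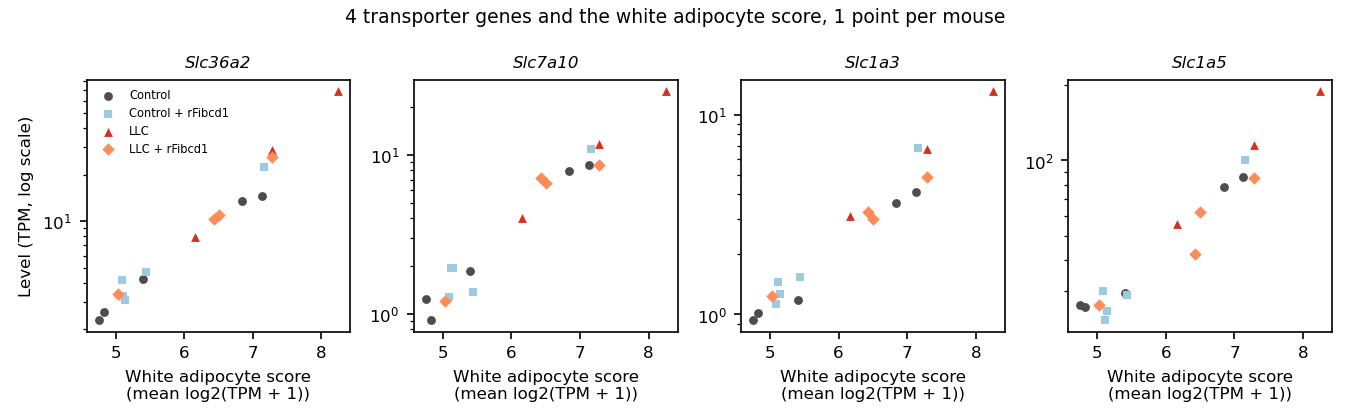
Level in TPM (log scale) of Slc36a2, Slc7a10, Slc1a3 and Slc1a5 against the white adipocyte score, 1 point per mouse; colors and symbols give the 4 groups. In each panel the 9 mice with a score of 6.16 or more lie above the 8 mice with a score of 5.44 or less.

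Markers of blood and immune cells were also counted in the pooled tumor comparison, in which 38.8% of all genes passed upwards and 5.98% downwards. The 8 B cell markers were summed to 2.62 to 103 TPM in Control, 3.76 to 147 TPM in Control_rFibcd1, 234 to 297 TPM in LLC and 19.1 to 293 TPM in LLC_rFibcd1, and 8 of 8 passed upwards. One of them was at 0 in Control replicate 5. The 9 macrophage markers summed to 384 to 705, 274 to 1925, 1066 to 1227 and 511 to 1175 TPM in the same order of groups, and 5 of 9 passed upwards, with none at 0 in any mouse. Of the 12 skeletal muscle markers, all of them detected, 7 passed downwards, with a median sum of 65954 TPM in Control and 55887 TPM in LLC. T cell markers passed upwards in 8 of 8 cases, neutrophil markers in 5 of 5, erythroid markers in 6 of 6, endothelial markers in 7 of 8 and liver markers in 0 of 10.

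Once the B cell score entered the model, calls over all genes in the pooled tumor comparison fell from 44.8% to 4.55%, and 2 of the 13 transporter calls remained, Slc3a2 (0.42, adjusted p = 0.0472) and Slc43a2 (0.34, adjusted p = 0.0237). With the macrophage score 8.81% of all genes passed and 4 of the transporter calls remained, namely Slc3a2 (0.43, adjusted p = 0.0156), Slc43a2 (0.34, adjusted p = 0.0127), Slc7a7 (0.41, adjusted p = 0.035) and Slc7a2 (-0.49, adjusted p = 0.0383). The loss of calls was thus general. The size of the Slc43a2 and Slc7a2 differences moved little with either score, as did that of Slc38a7, which no longer passed (0.23 with the B cell score, adjusted p = 0.0621, and 0.20 with the macrophage score, adjusted p = 0.0602), whereas that of Slc38a1 went from 0.87 to 0.16 and 0.27, that of Slc7a5 from 0.53 to 0.24 and 0.33, and that of Slc7a1 from 0.52 to 0.24 and 0.29. Both scores differ between tumor-bearing and tumor-free mice, so a score and the tumor share part of their variation in these fits.

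**Figure D5:**
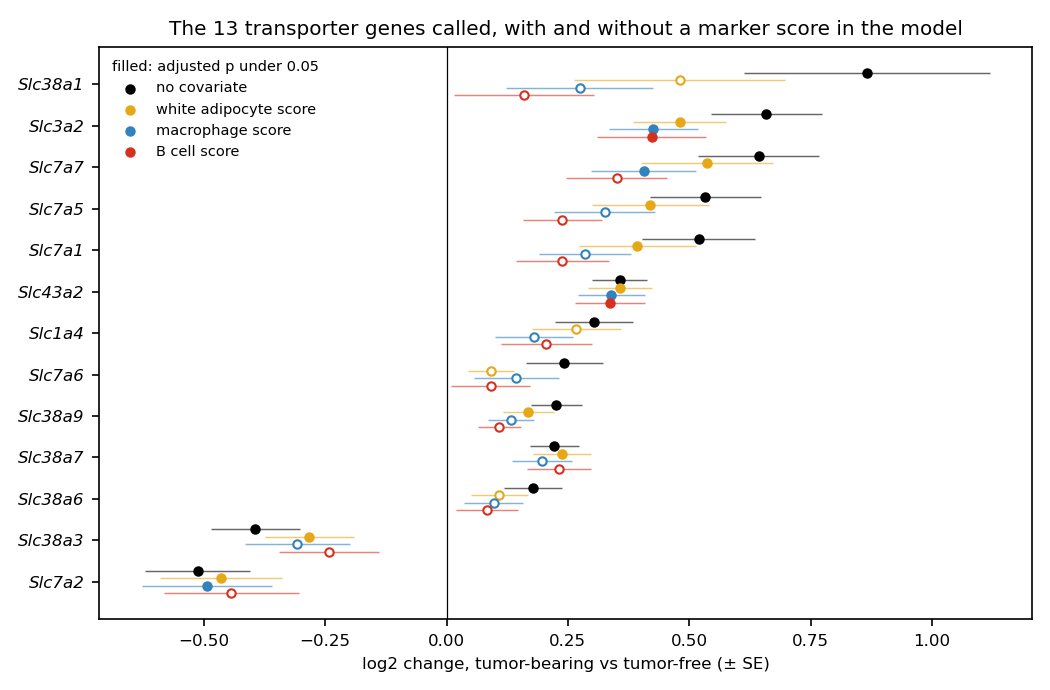
Pooled tumor difference in log2(TPM + 1) with its SE for the 13 transporter genes called, without a covariate and with the white adipocyte, macrophage or B cell score in the model; filled points have an adjusted p under 0.05. Slc43a2 keeps a difference near 0.34 to 0.36 in all 4 fits, and Slc38a1 drops from 0.87 to 0.16 with the B cell score.

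Genes that act next to the transporters were counted by list. Of 22 genes of the amino acid starvation response, targets or partners of ATF4, 9 rose and 1 fell in the pooled tumor comparison, where 38.8% of all genes passed upwards and 5.98% downwards, so the list lay near the background, with a median change of 0.23 against 0.13 for all genes. With median-ratio scaling 4 rose and 2 fell, with quantile normalization 2 and 2, and rescaled without mitochondrially encoded genes 5 and 1. Those with the largest changes were Phgdh and Psat1, enzymes of serine synthesis (0.93 and 0.49, adjusted p = 0.0384 and 0.0428), Asns, which makes asparagine (0.61, adjusted p = 0.0275), and Mthfd2, of the mitochondrial folate pathway (0.46, adjusted p = 0.00486). Of 26 tested genes of amino acid sensing by mTORC1, 10 rose and 0 fell, again close to the 38.8% of all genes that rose, with a median of 0.09, below that of all genes. With median-ratio scaling or quantile normalization 0 of the 26 rose and 3 fell, and rescaled without mitochondrially encoded genes 1 rose and 1 fell. The largest of the 10 rises were Sesn2 and Sesn3, inhibitors of the pathway of which the former binds leucine (0.42 and 0.29, adjusted p = 0.0478 and 0.008), and Fnip2 and Flcn, partners that act on the Rag GTPases (0.37 and 0.25, adjusted p = 0.0247 and 0.0411).

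Enzymes that use the carried amino acids were counted in 3 lists. Of 10 tested enzymes of glutamine and glutamate metabolism, 0 rose and 4 fell, against 38.8% and 5.98% of all genes: Gpt2 (-0.35, adjusted p = 0.0175), Got1 (-0.21, adjusted p = 0.00777), Got2 (-0.16, adjusted p = 0.00291) and Aldh4a1 (-0.15, adjusted p = 0.0133), of which the first 3 are transaminases. With median-ratio scaling 9 of these 10 fell (18.3% of all genes) and with quantile normalization 8 (25.0%), and 0 rose with either. Rescaled without mitochondrially encoded genes, 6 of 11 tested fell (10.5% of all genes) and 0 rose. Of 21 tested genes of branched-chain amino acid breakdown, 1 rose, the mitochondrial carrier Slc25a44 (0.17, adjusted p = 0.0445), and 3 fell, Dld (-0.23, adjusted p = 0.00111), Acad8 (-0.13, adjusted p = 0.00536) and Bckdk (-0.067, adjusted p = 0.0489). Bckdk is the kinase that inhibits the pathway, while Dld is a subunit of its dehydrogenase. In this list 14 fell with median-ratio scaling, 12 with quantile normalization and 8 rescaled without mitochondrially encoded genes, against the same shares of all genes. The count thus depends on the scaling. Between LLC and Control, 6 genes of this list fell and 0 rose, against 6.02% and 29.7% of all genes, in the comparison in which 0.182% of all genes pass without LLC replicate 3. Of 13 tested genes of cystine and glutathione metabolism, 4 rose and 1 fell, with Gpx1 (0.44, adjusted p = 0.0344), Hmox1 (0.39, adjusted p = 0.0142) and Gsr (0.32, adjusted p = 0.00112) the largest rises, and their cystine importer Slc7a11 stayed below the filter. With median-ratio scaling or quantile normalization 1 rose and 2 fell, and rescaled without mitochondrially encoded genes 2 rose and 1 fell.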

How the data were processed

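RNA from the diaphragm of 17 mice was sequenced by the authors as 100-bp pairs and aligned with CLC Genomics Workbench to build mm10 (GRCm38). The deposited unit is TPM, for which the authors divided reads per gene by gene length and scaled each mouse to a sum of 1000000. The annotation release is not given in the sources used here, and the labels and methods name different library kits, so the use of strand is unsettled. Gene coordinates were taken from GENCODE for GRCm38 (94.6% of symbols matched), and promoters from RefSeq GRCm38.p6. Steps of the low values gave an estimated depth of 50800000 to 54600000 reads per mouse (79.3% to 81.9% of values within 0.02 of a whole read).

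Groups and replicate numbers came from the sample titles. Genes that reached 1 TPM in 3 or more mice were tested on log2(TPM + 1) with limma 3.58.1 in R 4.3.3, in a fit of all 4 groups with 13 residual degrees of freedom and an expression trend. Tests were two-sided, with Benjamini-Hochberg adjustment over 13305 genes and a threshold of 0.05; the script was tested on simulated data. The study's rank tests (Dunn) served as an alternative because groups hold 3 to 5 mice. Replicates are separate mice. Marker scores for white adipocytes and macrophages, the liver list and the list counts under other scalings were added after seeing the data. Full statistics were given for transporters called in a comparison, the 5 most abundant (in the pooled tumor comparison), and those with the smallest p where none was called; the 4 transporters linked to the adipocyte score and the genes below the filter were named after their values had been seen. The genes and lists were chosen with earlier results of these data known.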

Additional observations from a re-analysis of the deposited data

Results flagged for a closer look

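Of 78 combinations of a tested transporter and a group of 4 or 5 mice, 8 had a single mouse set apart from the rest by a gap wide for the group's range. The rule would flag about 1 in 20, or 3.9, for independent and normally distributed values. TPM of several genes in the same mice are not such values, so 3.9 is no expected count here. All 8 were the highest of their group and came from Control_rFibcd1 replicates 1 and 2. In Control_rFibcd1 replicate 1 these were Slc1a5 (101 TPM, others 22.9 to 30), Slc36a2 (22.2 TPM, others 3.1 to 4.7), Slc7a10 (10.9 TPM, others 1.28 to 1.95), Slc1a3 (6.8 TPM, others 1.13 to 1.54), Slc43a1 (6.2 TPM, others 3.02 to 3.77) and Slc38a1 (4 TPM, others 0.402 to 1.37). This mouse had Adipoq at 192 TPM, against 34.0 to 49.6 TPM in the other 4 mice of its group, and Adgre1, a macrophage marker, at 18.1 TPM against 2.72 to 5.62 TPM. In Control_rFibcd1 replicate 2 they were Slc38a4, a carrier known from liver (26.1 TPM, others 4.9 to 5.92), and Slc7a2 (17.2 TPM, others 7.98 to 10.2), in the mouse with Alb at 1934 TPM. The part of these cell types in the values was not tested.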

How the results depend on the processing

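The pooled tumor comparison called 13 transporters, and 10 to 19 without 1 mouse. The count was 8 (5 higher, 3 lower) after quantile normalization, 2 with the B cell score and 4 with the macrophage score; median-ratio scaling gave 8 higher and 3 lower. Between LLC and Control, 13 became 6 (5 higher, 1 lower) with median-ratio scaling, 7 (5 higher, 2 lower) with quantile normalization, 7 rescaled without mitochondrially encoded genes (28.4% of all genes), and 0 with the B cell, white adipocyte or macrophage score (0.0526%, 0.729% and 0.023% of all genes) or with Dunn's test, and ranged from 0 to 15 without 1 mouse. Between LLC_rFibcd1 and Control_rFibcd1, 3 became 1 with quantile normalization, 1 with only the compared mice and 0 with Dunn's test, and ranged from 2 to 8 without 1 mouse. The other 3 comparisons gave 0 in every fit. Dunn's test called 0 of all 13305 genes in each comparison it was run on, so its 0 says nothing about the transporters, nor do the other counts of 0 between LLC and Control, where few genes of any kind passed. The cause of these changes was not tested. The replicate block gave 0 calls between LLC and Control (0.0376% of all genes) and 10 in the pooled comparison (28.4%); same-numbered mice did not deviate together (r from -0.459 to 0.485 over 22 pairs, 4 of them over 0.1), and 1 of 17 mice correlated best with its own number.

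Quantile normalization reversed Slc38a7, Slc38a9 and Slc38a6, to -0.00236, -0.00852 and -0.0594 in the pooled comparison and to -0.057, -0.0948 and -0.0226 between LLC and Control. Over all genes in the pooled comparison, 5167 of 5963 calls were upwards, 2374 of 4807 with median-ratio scaling, 1819 of 5144 with quantile normalization and 3544 of 5063 rescaled without mitochondrially encoded genes. At this depth 1 read corresponds to 0.0023 to 0.023 TPM for these genes.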
